A study of Mus musculus with 16 samples.

Results

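The genes described here are the orphan, adhesion and aminergic G protein-coupled receptors (GPCRs) of mouse cardiac endothelium, with neighbouring receptors for nucleotides, prostaglandin E2, lysophosphatidic acid and proteases. They were chosen by symbol, from the protein-coding genes whose symbol in the authors' table begins with Gpr and a digit, Adgr, Adra, Adrb, Adora, Hrh, Htr, Chrm, P2ry, Ptger, Lpar or F2rl. This gave 155 of 43629 genes, with 153 distinct symbols, since Adora3 and Gpr152 each occur in 2 rows. Reads were present for 154 of them, and 129 passed the filter on low values and were tested. The rule also takes 16 genes by name alone that are not G protein-coupled receptors: the serine proteases Htra1 to Htra4, the serotonin-gated ion channels Htr3a and Htr3b, the receptor kinases Adrbk1 and Adrbk2, and 8 numbered Gpr genes such as Gpr107 and Gpr155. It misses 12 genes that carry a matching symbol only in current nomenclature, among them Eltd1, Cd97 and Lphn2. The second Adora3 row carries the current symbol Tmigd3 and is not among the 16. By its symbol in the authors' table it was counted as an adenosine receptor, and it held 20 reads in all and was not called.

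RNA-seq was done on 16 samples of endothelial cells taken from the hearts of C57BL/6J mice with beads that bind CD31, an endothelial surface protein, and each sample pooled 2 mice. The mice were 8 to 10 weeks old, and all groups, the controls included, had received tamoxifen, with RNA taken on day 6. Of the samples 4 were Cre controls, and 4 each were labelled as endothelial knockouts of Klf2 (K2KO), of Klf4 (K4KO) and of both (DKO). Klf2 and Klf4 are zinc-finger transcription factors, induced in endothelium by laminar flow, and the comparisons ask how their loss, alone and together, changed the RNA of these receptors. The promoter that drives Cre and the exons that were deleted are not given in the labels.

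G protein-coupled receptors span the membrane and pass a signal to heterotrimeric G proteins when a ligand binds outside. Gs raises cyclic AMP, Gi lowers it, Gq releases calcium through phospholipase C beta, and G12 and G13 act on the cytoskeleton. In blood vessels, adrenergic, muscarinic, adenosine, histamine and nucleotide receptors set tone and permeability, LPA and protease-activated receptors sense plasma lipids and thrombin, and adhesion receptors carry large extracellular domains that bind matrix or neighbouring cells. An orphan receptor is one without an agreed natural ligand.

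KLF proteins are known to bind the sequence CACCC, so the promoter letters of the most changed members with an entry in the RefSeq promoter table (GRCm38.p6) are shown first. Each line gives the 250 bases before the annotated start on the gene's own strand, with CACCC, or its reverse complement GGGTG, in capitals. F2rl3 lies at chr8:72761409-72761658, Gpr97 at chr8:95017442-95017691 and Lpar4 at chrX:106920375-106920624, all on the plus strand, and these 3 were higher in the DKO-labelled libraries. Adra2c at chr5:35278316-35278565 and Hrh2 at chr13:54191883-54192132, both on the plus strand, and Gpr22 at chr12:31713884-31714133 on the minus strand were lower.
F2rl3: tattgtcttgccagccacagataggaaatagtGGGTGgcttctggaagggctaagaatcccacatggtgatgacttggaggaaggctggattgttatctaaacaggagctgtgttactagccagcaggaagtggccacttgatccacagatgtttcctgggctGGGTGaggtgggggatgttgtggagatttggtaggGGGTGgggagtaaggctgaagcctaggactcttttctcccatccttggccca
Gpr97: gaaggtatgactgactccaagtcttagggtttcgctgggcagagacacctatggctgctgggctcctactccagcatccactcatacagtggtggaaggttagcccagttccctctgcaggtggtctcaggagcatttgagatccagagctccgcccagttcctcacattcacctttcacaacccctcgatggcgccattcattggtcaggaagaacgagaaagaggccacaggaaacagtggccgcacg
Lpar4: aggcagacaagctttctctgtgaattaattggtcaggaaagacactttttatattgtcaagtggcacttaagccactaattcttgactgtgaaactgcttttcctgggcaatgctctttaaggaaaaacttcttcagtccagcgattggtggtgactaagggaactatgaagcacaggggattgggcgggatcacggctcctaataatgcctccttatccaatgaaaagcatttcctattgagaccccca
Adra2c: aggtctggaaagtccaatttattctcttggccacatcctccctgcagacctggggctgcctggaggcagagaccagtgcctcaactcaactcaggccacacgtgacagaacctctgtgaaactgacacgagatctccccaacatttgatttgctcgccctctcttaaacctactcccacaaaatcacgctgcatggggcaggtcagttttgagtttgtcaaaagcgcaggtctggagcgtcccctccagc
Hrh2: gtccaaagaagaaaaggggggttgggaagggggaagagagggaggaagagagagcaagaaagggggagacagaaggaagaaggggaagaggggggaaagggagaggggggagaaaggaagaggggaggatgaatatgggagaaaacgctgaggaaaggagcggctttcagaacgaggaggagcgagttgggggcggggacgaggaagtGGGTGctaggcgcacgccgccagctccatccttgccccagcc
Gpr22: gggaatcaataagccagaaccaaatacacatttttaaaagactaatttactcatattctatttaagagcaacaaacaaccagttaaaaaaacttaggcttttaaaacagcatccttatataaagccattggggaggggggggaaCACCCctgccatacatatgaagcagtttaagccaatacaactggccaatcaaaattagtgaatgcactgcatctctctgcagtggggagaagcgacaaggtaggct
F2rl3 held 3 matches, Hrh2 and Gpr22 held 1 each, and Lpar4, Gpr97 and Adra2c held 0 in this window. For F2rl3, unlike the others shown, the bases after the annotated start were not found in a GENCODE transcript of the gene. Its window may thus not lie at the start of the counted transcripts. A match was present in 51.3% of 27025 genes with an entry and in 61.6% of the 112 members with one. It was present in 5 of the 8 higher members with an entry (62.5%), in 16 of the 28 lower members (57.1%) and in 41 of the 59 tested members that were not called (69.5%). The share was thus no higher in the called members than in those not called.

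The libraries held 21.1 to 106.0 M reads, and values are given below as scaled counts, that is, gene counts that the authors had divided by 1 factor per library. Klf2 stood at 3354 ± 203 scaled counts (SD, n = 4) in K2KO against 7227 ± 2359 in the controls, and Klf4 at 5819 ± 705 in K4KO against 9691 ± 2466. The limma log2 changes were -1.06 for Klf2 in K2KO (adjusted p = 0.00682) and -0.71 for Klf4 in K4KO (adjusted p = 0.118). The fall of Klf4 thus did not pass the test, though all K4KO libraries lay below all controls. In the libraries labelled DKO neither passed the test as lower than in the controls, with Klf2 at 9066 ± 1538 and Klf4 at 9447 ± 1898 (limma log2 changes 0.36, adjusted p = 0.0881, and -0.03, adjusted p = 0.923), so that group is called DKO-labelled, and each direction drawn from it rests on the label. The 8 endothelial markers were present in every library, at summed scaled counts of 234438 to 286936 in controls and 272613 to 303628 in DKO-labelled libraries. Singly, 2 of them were called higher and 3 lower in the DKO-labelled libraries, with a median log2 change of -0.29 (limma). These counts were 2 and 5 with quantile normalization, and 2 and 1 with all libraries scaled to the same median. Markers of other cells were present in all libraries and several lists were lower in the DKO-labelled ones. The 10 cardiomyocyte markers summed to 86564 to 158476 in controls and 24193 to 34826 in DKO-labelled libraries, the 9 mural markers to 121936 to 130528 and 75892 to 92794, and the 6 lymphocyte markers to 1034 to 1364 and 331 to 410.0. Library 1 of K4KO and column 2 of K2KO held reads on many genes that were silent elsewhere, and the counts of called members in each comparison were also made without both.

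Gpr116 was by far the most abundant member. To compare genes, values were divided by exon length. Gpr116 (Adgrf5), an adhesion receptor of endothelium and lung epithelium, stood at 11341 ± 1337 scaled counts per kilobase in controls. Next came Gpr56 (Adgrg1), an adhesion receptor that binds collagen III, at 1538 ± 416 per kilobase, and Adrbk1, the receptor kinase GRK2, at 719 ± 76.3. The LPA receptor Lpar6 stood at 680.5 ± 57.7 per kilobase. These SDs make the order of Adrbk1 and Lpar6 uncertain, while Gpr116 lay above every other member in each of the 16 libraries. Gpr4, a proton sensor of endothelium, P2ry2, a receptor for ATP and UTP, Gpr146 and Gpr124 were lower, at 374 ± 54.5, 385 ± 69.7, 386 ± 79.4 and 337 ± 53.0 per kilobase in controls, which their spread does not put in order. Of the numbered receptors, Gpr182, an atypical chemokine receptor of endothelium, stood at 206 ± 45.1 per kilobase. The thrombin receptor F2rl3 (PAR4) was lower, at 56.5 ± 4.00.

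**Figure D1:**
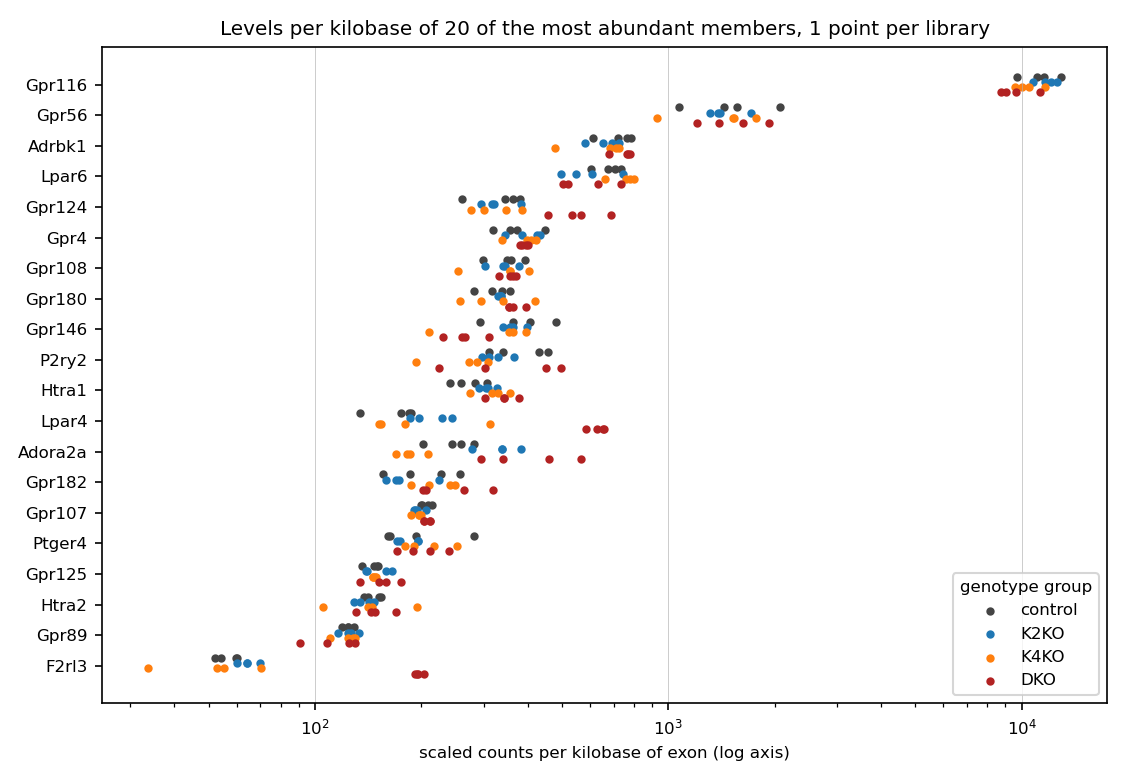
Scaled counts per kilobase of exon (log axis) of 20 of the most abundant members, with 1 point for each of the 16 libraries, coloured by genotype group. Gpr116 stands apart, with every point above those of all other members, and Lpar4, Gpr124 and F2rl3 are the members of this set whose DKO-labelled points lie to the right of their other points.

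In the DKO-labelled libraries 13 of the 129 tested members were higher than in controls and 37 were lower (limma, adjusted p below 0.05), among them the LPA receptor Lpar4 and the thrombin receptor F2rl3 on the higher side, and alpha-adrenergic, muscarinic and histamine H2 receptors on the lower side. These are 10.1% and 28.7% of the members tested, beside 19.0% higher and 19.3% lower over all 23816 genes tested. The median log2 change was -0.20 over the members and -0.03 over all tested genes. With all libraries scaled to the same median, the median of all genes moved to 0.18 and the members divided into 22 higher and 27 lower, so the share of calls on the higher side was 26.0% in the deposited scale and 44.9% in the other. Without the K4KO and K2KO libraries that stood apart, 13 were higher and 36 lower. Groups did not overlap for 10 members on the higher side (7.75%) and 29 on the lower side (22.5%), beside 18.9% and 18.1% of all tested genes. Of the 50 members called, 31 had changed at least 2-fold, 9 upward and 22 downward. These 2-fold counts stand without a share over all tested genes, so they do not set the members apart from other genes. Receptors made up 44 of the 50 (12 higher and 32 lower of 115, with the row now named Tmigd3 among the 115).

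**Figure D2:**
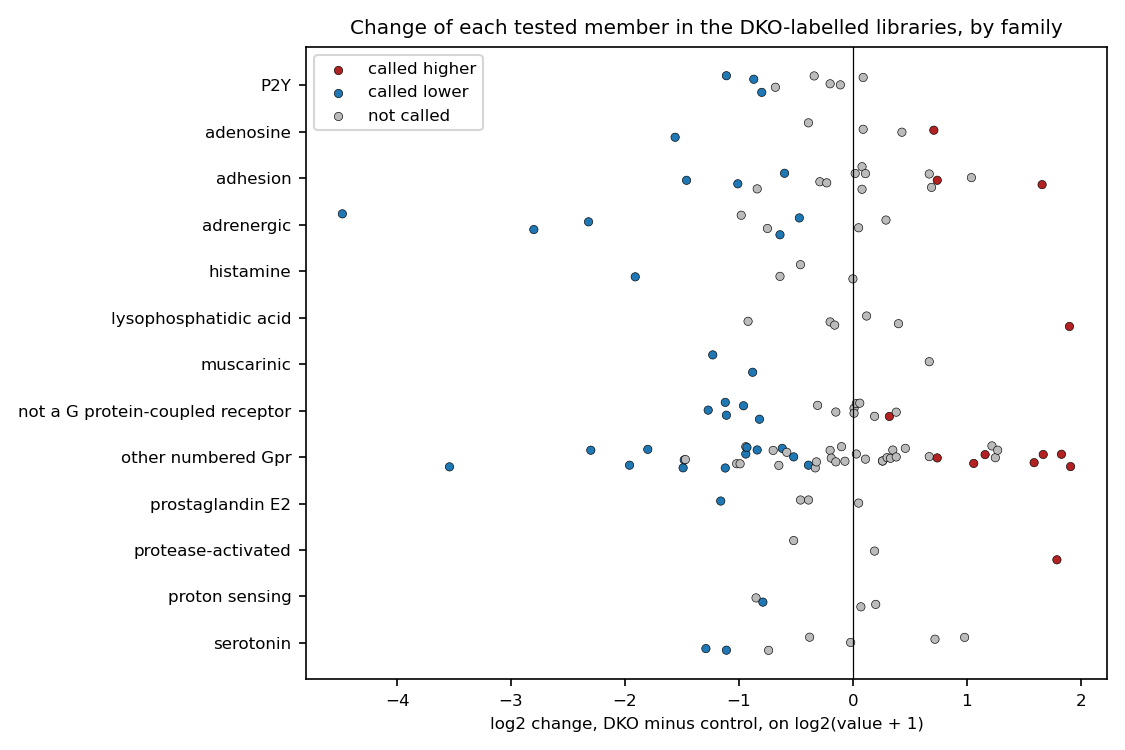
Log2 change of each of the 129 tested members, DKO-labelled minus control, by receptor family, with 1 point per gene, red where called higher, blue where called lower and grey where not called. The adrenergic row reaches furthest to the left, at -4.48 for Adra2c, and no adrenergic, muscarinic or P2Y point is red. Gpr50, which had 0 reads in the controls, is drawn at its fitted value.

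Among called members without overlap and with a group mean of at least 50 scaled counts, Lpar4 and F2rl3 rose most. Their ligands are a lipid and a protease. Lpar4, which couples to G12, G13 and other G proteins on binding LPA, stood at 779.7, 569.7, 744 and 793 scaled counts in the controls, at 834, 1033, 785 and 970.3 in K2KO, at 651, 644, 762 and 1329 in K4KO and at 2478, 2669, 2795 and 2767 in the DKO-labelled libraries. All 4 DKO-labelled libraries lay above the other 12, and the log2 change from control was 1.90 ± 0.17 (SE; limma, adjusted p = 8.25e-08). It was the 1 member of the 6 tested LPA receptors to be called. Lpar6 stood at 3675 ± 312 and 3229.6 ± 591 (log2 change -0.20 ± 0.13, adjusted p = 0.239 by limma), and Lpar1, a further member of this family, at 114 ± 25.6 and 127 ± 42.3. Lpar6 lies within the span of Rb1. Per kilobase, Lpar4 in the DKO-labelled libraries stood at 632 ± 33.9, beside 598 ± 109 for Lpar6, while in controls it was at 170.3 ± 24.4 beside 680.5 ± 57.7.

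F2rl3 encodes PAR4, which thrombin activates by cutting its extracellular end. It stood at 119, 108, 104 and 120.1 scaled counts in the controls, at 139.5, 128, 128 and 120.0 in K2KO, at 139.9, 110.1, 105 and 67.1 in K4KO and at 387, 390.2, 383 and 405 in the DKO-labelled libraries. These last 4 agreed closely and did not overlap any other library (log2 change 1.79 ± 0.16, limma adjusted p = 6.39e-08). F2rl1 (PAR2), which trypsin-like proteases activate, stood at 226 ± 30.8 in controls and 257 ± 38.4 in the DKO-labelled group and did not pass the test (adjusted p = 0.410 by limma). PAR4 is also a platelet receptor. The 5 platelet markers summed to 467 to 773 in controls and 386 to 693 in DKO-labelled libraries, and singly 0 were called higher and 2 lower. The part of platelet RNA in the values of F2rl3 was not tested.

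Among the adhesion receptors, Gpr97 and Gpr124 rose. Gpr97 (Adgrg3), best known from granulocytes, stood at 335, 310.3, 344 and 262 scaled counts in controls, at 320.1, 318, 351 and 341 in K2KO, at 354, 326, 270.3 and 266 in K4KO and at 717, 1026, 1381 and 929 in the DKO-labelled libraries, which lay above all others but spread over a range of nearly 2-fold. Its log2 change was 1.66 ± 0.15 (limma, adjusted p = 9.05e-08). Gpr124 (Adgra2), which acts with Reck in Wnt7 signalling in brain endothelium, stood at 2192, 2098, 1993 and 1505 in controls, at 1832, 1709, 2213 and 1858 in K2KO, at 2008, 2229, 1737 and 1597 in K4KO and at 2645, 3088, 3966 and 3270.3 in the DKO-labelled libraries (log2 change 0.74 ± 0.14, limma adjusted p = 0.000210). Both were clear of the other 12 libraries. Of the 15 tested adhesion receptors 2 rose and 3 fell (3 and 1 with the same-median scaling), with Gpr133 and Gpr64 among the latter, and the family median was 0.08, which turned to -0.04 with quantile normalization. The call on Gpr133 was lost under both other scalings, and that on Gpr64 in 9 of 24 alternative fits, both scalings and the fits without control 3, control 4, DKO 2 or DKO 5 among them. The most abundant did not pass the test in the deposited scale: Gpr116 stood at 102179.6 ± 12048 and 87065 ± 10169.6 scaled counts (adjusted p = 0.131) and Gpr56 at 8338 ± 2256 and 8325 ± 1674 (adjusted p = 0.968, both by limma). Gpr116 was called lower with quantile normalization (log2 change -0.62, limma adjusted p = 0.000123) and by DESeq2 (-0.23, adjusted p = 0.0477), and with the same-median scaling its change was 0.03. Gpr125 (Adgra3), the closest relative of Gpr124, stood at 1185 ± 55.3 and 1256 ± 139.

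Of the adenosine receptors, which read extracellular adenosine, the Gs-coupled Adora2a rose and the Gi-coupled Adora1 fell. Adora2a stood at 793, 865, 750.2 and 619.5 scaled counts in controls, at 1035, 851, 1169 and 1035 in K2KO, at 520.1, 638, 567 and 557 in K4KO and at 905, 1403, 1729 and 1046 in the DKO-labelled libraries. The DKO-labelled libraries lay above the controls and K4KO but overlapped K2KO (log2 change from control 0.71 ± 0.16, limma adjusted p = 0.00132). Adora1 stood at 43.2, 72.7, 36.2 and 89.8 in controls, at 89.0, 71.4, 94.1 and 42.5 in K2KO, at 55.4, 110.1, 56.0 and 70.9 in K4KO and at 25.5, 17.3, 14.0 and 19.1 in the DKO-labelled libraries, which lay below the other 12 (log2 change -1.56 ± 0.31, limma adjusted p = 0.000484). Adora2b, the low-affinity Gs-coupled receptor, stood at 44.8 ± 9.40 and 48.1 ± 10.8 and was not called. Per kilobase in controls Adora2a, at 247 ± 33.7, was the highest of the family, with Adora2b at 24.3 ± 5.09 and Adora1 at 10.5 ± 4.34. Adora1 is also a cardiomyocyte receptor, and the part of the lower cardiomyocyte marker sum in its fall was not tested. In these bulk samples fewer cells of a type and less RNA per cell cannot be told apart.

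Other numbered receptors also rose. Gpr162, an orphan, stood at 9.88, 17.0, 20.5 and 34.1 in controls, at 22.3, 17.1, 24.4 and 22.2 in K2KO, at 24.8, 30.9, 29.8 and 19.0 in K4KO and at 39.9, 75.3, 73.1 and 52.0 in the DKO-labelled libraries (log2 change 1.59 ± 0.31, limma adjusted p = 0.000349). Gpr34, a receptor for lysophosphatidylserine on macrophages and mast cells, stood at 49.4, 50.9, 26.6 and 51.8, at 50.5, 33.6, 39.2 and 43.4, at 48.1, 30.9, 32.1 and 40.5 and at 62.1, 76.6, 87.4 and 66.9 in the same order (log2 change 0.74 ± 0.23, limma adjusted p = 0.0151). The DKO-labelled libraries were the highest in each case, but the call on Gpr34 was lost without control 3 (log2 change 0.51) or DKO 4 (0.65). The 8 macrophage markers summed to 2789 to 4901 in controls and 2392 to 4731 in DKO-labelled libraries. Gpr34 lies within the span of Cask, and use of the strand in the authors' counting was not given in the sources used here. Gpr176, Gpr141, Gpr82 and Gpr50 were also called higher at mean levels of at most 47.0 ± 8.23 scaled counts, and Gpr50 had 0 reads in the 4 control libraries and 15 in the 4 DKO-labelled ones. The calls on Gpr141 and Gpr82 were lost in 12 of 25 and 5 of 23 alternatives, fits without 1 library among them.

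Of the 9 tested adrenergic receptors, which bind adrenaline and noradrenaline, 5 were lower and 0 higher in the DKO-labelled libraries, with a median log2 change of -0.75. The count of lower receptors was 3 with libraries scaled to the same median and 4 with quantile normalization. Adra2c, a Gi-coupled alpha-2 receptor, stood at 93.9, 83.6, 91.8 and 45.5 scaled counts in controls, at 53.1, 59.6, 85.3 and 76.6 in K2KO, at 77.2, 83.2, 81.0 and 27.9 in K4KO and at 14.4, 1.23, 0.305 and 2.12 in the DKO-labelled libraries, where it rested on 17 reads in all. No library of this group reached the lowest of the other 12, and the log2 change was -4.48 ± 0.54 (limma, adjusted p = 1.89e-06), the widest of all members. Adra1a, a Gq-coupled alpha-1 receptor of cardiomyocytes and smooth muscle, stood at 122, 148, 197 and 419.8 in controls, at 265, 232, 253 and 116 in K2KO, at 150.1, 266, 198 and 282 in K4KO and at 46.6, 22.2, 25.3 and 21.2 in the DKO-labelled libraries (log2 change -2.80 ± 0.35, limma adjusted p = 2.52e-06). Control 4, which was also highest in cardiomyocyte markers, was the highest control for Adra1a.

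Adra1b, a second alpha-1 receptor, stood at 37.1, 25.5, 29.0 and 51.8 scaled counts in controls, at 63.3, 54.9, 58.9 and 35.1 in K2KO, at 36.4, 72.5, 31.0 and 35.5 in K4KO and at 4.43, 7.41, 4.87 and 8.50 in the DKO-labelled libraries (log2 change -2.32 ± 0.31, limma adjusted p = 5.56e-06). It was again lower in each DKO-labelled library than in all 12 others. A smaller fall was called for Adra2b, from 136 ± 19.1 to 88.4 ± 23.7 (log2 change -0.64 ± 0.20, limma adjusted p = 0.0168), a call that was lost under both other scalings and without control 1, DKO 2 or DKO 5. Adrb1, the main beta receptor of cardiomyocytes, stood at 50.7 ± 26.1 in controls and 50.4 ± 17.0 in DKO-labelled libraries (adjusted p = 0.927 by limma), while all 10 cardiomyocyte markers were called lower. The part of other cell types in the adrenergic falls was not tested.

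Muscarinic, histamine and serotonin receptors gave falls and no rise. Chrm2, the Gi-coupled acetylcholine receptor of the heart, stood at 357, 282, 321 and 465 scaled counts in controls, at 581, 452, 485 and 371 in K2KO, at 286, 608, 476 and 669 in K4KO and at 153, 146, 152 and 143 in the DKO-labelled libraries. The last 4 were nearly equal and below all others (log2 change -1.23 ± 0.21, limma adjusted p = 8.55e-05). Chrm3, the Gq-coupled receptor through which acetylcholine makes endothelium release nitric oxide, stood at 193, 124, 173 and 150.5 in controls and at 94.2, 80.3, 89.6 and 77.5 in the DKO-labelled libraries, without overlap (log2 change -0.88 ± 0.15, limma adjusted p = 6.78e-05). These were 2 of the 3 muscarinic receptors tested, and both were also called with the same-median scaling and with quantile normalization. All 10 cardiomyocyte markers were called lower in the same libraries (median log2 change -1.73), and their part in the fall of Chrm2 was not tested.

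Hrh2, a Gs-coupled histamine receptor, stood at 187, 188, 199 and 204 scaled counts in controls, at 360.4, 374, 359 and 297 in K2KO, at 118, 121, 113 and 63.3 in K4KO and at 69.8, 45.7, 41.4 and 51.0 in the DKO-labelled libraries. The DKO-labelled libraries lay below controls and K2KO and overlapped the lowest K4KO library (log2 change from control -1.91 ± 0.19, limma adjusted p = 2.08e-07). It was the 1 histamine receptor of 4 tested to be called. Htr2a, a Gq-coupled serotonin receptor of smooth muscle and platelets, stood at 124, 127, 111 and 83.4 in controls, at 82.2, 106, 92.0 and 88.6 in K2KO, at 74.3, 94.0, 98.8 and 59.5 in K4KO and at 45.5, 54.3, 44.5 and 35.1 in the DKO-labelled libraries (log2 change -1.29 ± 0.19, limma adjusted p = 1.99e-05). Its DKO-labelled libraries were the 4 lowest of the 16. Of the 9 mural markers 3 were called lower and of the 5 platelet markers 2, and their part in the fall of Htr2a was not tested. Htr2b, a second Gq-coupled serotonin receptor, stood at 34.6 ± 8.65 and 17.2 ± 9.28 (log2 change -1.11 ± 0.35, limma adjusted p = 0.0153), and it lies within the span of Psmd1. The call on Htr2b was lost under both other scalings, in the fit of the compared groups alone and without control 2 or DKO 4, so that 1 serotonin receptor of 7 was lower under either scaling, against 2 in the deposited scale.

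Nucleotide receptors of the P2Y family gave 3 falls and 0 rises of 8 tested (2 falls under either other scaling). P2ry14, which binds UDP-glucose, stood at 213, 222, 208 and 252 scaled counts in controls and 124, 101, 167 and 103 in the DKO-labelled libraries, without overlap (log2 change -0.87 ± 0.17, limma adjusted p = 0.000317). P2ry10, a lysophosphatidylserine receptor of lymphocytes, stood at 174, 182, 219 and 283 and 109.7, 97.6, 118 and 70.1, also without overlap (log2 change -1.11 ± 0.21, limma adjusted p = 0.000254). P2ry12, the ADP receptor of platelets and microglia, stood at 68.8 ± 17.4 and 38.9 ± 9.83 (limma adjusted p = 0.0164), a call that was lost under both other scalings and without control 4 or DKO 3. P2ry2, the most abundant of the family, stood at 1336, 1789, 1696 and 1224 in controls, at 1169, 1291, 1432 and 1223 in K2KO, at 1132, 1070.1, 1212 and 757 in K4KO and at 882, 1769.5, 1955 and 1189.6 in the DKO-labelled libraries. The DKO-labelled libraries spanned the whole range of the controls, and the test found no difference that passed (limma adjusted p = 0.728). P2ry12 and P2ry14 lie within the span of Med12l.

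Of the prostaglandin E2 receptors, Ptger2 fell and the abundant Ptger4 did not pass the test. Ptger4 (EP4), which couples to Gs, stood at 1329 ± 375 scaled counts in controls and 1348 ± 195 in DKO-labelled libraries (limma adjusted p = 0.854). Ptger2 (EP2) stood at 17.5 ± 2.67 and 7.72 ± 3.74 (log2 change -1.16 ± 0.38, limma adjusted p = 0.0192), a call that was lost with quantile normalization and without control 1 or DKO 5. The proton sensor Gpr4 stood at 1079 ± 157 and 1126 ± 26.8 (limma adjusted p = 0.648). Gpr132, a relative of Gpr4 found mainly on leukocytes, stood at 66.1 ± 16.5 and 38.4 ± 13.0 (log2 change -0.79 ± 0.24, limma adjusted p = 0.0144), and this call was the 1 fall of 4 tested proton-sensing receptors. It was lost under both other scalings and without control 2 or DKO 5. With the same-median scaling the count turned to 1 rise and 0 falls.

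The other numbered receptors, mostly orphans, gave 7 rises and 13 falls of 47 tested, and 10 and 10 with the same-median scaling. Gpr22, an orphan of heart and brain, stood at 121, 98.2, 84.6 and 118 scaled counts in controls, at 176, 124, 149.5 and 77.6 in K2KO, at 103, 177, 132 and 186 in K4KO and at 29.9, 16.1, 16.8 and 21.2 in the DKO-labelled libraries (log2 change -2.30 ± 0.25, limma adjusted p = 7.00e-07). Gpr20, a Gi-coupled orphan, stood at 251, 198, 205 and 145 in controls, at 199, 201, 230.1 and 238 in K2KO, at 195, 287, 237 and 209 in K4KO and at 69.8, 46.9, 50.6 and 58.4 in the DKO-labelled libraries (log2 change -1.80 ± 0.17, limma adjusted p = 1.16e-07). Both were lower in each DKO-labelled library than in all 12 others. Gpr157, an orphan, stood at 429, 455, 467 and 566 in controls, at 501, 442, 447 and 423 in K2KO, at 459, 559.9, 444 and 438 in K4KO and at 219, 149, 116 and 213 in the DKO-labelled libraries, again with no overlap (log2 change -1.49 ± 0.16, limma adjusted p = 5.76e-07). Gpr22 lies within the span of Cog5, and the part of cardiomyocyte RNA in its fall was not tested.

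Several of the lower numbered receptors are known from lymphocytes. Gpr183, an oxysterol receptor that positions immune cells, stood at 84.0, 110.3, 91.8 and 130.2 scaled counts in controls, at 75.3, 48.4, 50.7 and 72.0 in K2KO, at 86.0, 67.1, 75.0 and 77.2 in K4KO and at 56.5, 43.2, 55.1 and 35.1 in the DKO-labelled libraries. The DKO-labelled libraries lay below the controls and K4KO but overlapped K2KO (log2 change -1.12 ± 0.20, limma adjusted p = 0.000162). Gpr171, Gpr174 and Gpr18 also fell, with limma log2 changes of -0.94 ± 0.20, -1.48 ± 0.31 and -0.93 ± 0.32 from control means of 74.3 ± 14.9, 30.5 ± 11.9 and 18.5 ± 6.57. The call on Gpr18 (limma adjusted p = 0.0262) was lost in 7 of 25 alternatives, both scalings and the fits without control 1, control 4, DKO 3 or DKO 5 among them. Of the 6 lymphocyte markers 4 were called lower and 0 higher, and the part of lymphocyte RNA in these falls was not tested. Gpr183 and Gpr18 lie within the span of Ubac2. Gpr1, a chemerin receptor, fell from 29.2 ± 6.73 to 1.57 ± 0.483 (log2 change -3.54 ± 0.29, limma adjusted p = 2.27e-08). Gpr146, among the most abundant numbered receptors, stood at 2617 ± 538 and 1808 ± 223 (log2 change -0.52 ± 0.17, limma adjusted p = 0.0179), with its lowest control inside the DKO-labelled range, and the call was lost with the same-median scaling and without control 2 or DKO 5. Gpr182 stood at 816 ± 178 and 979 ± 220.5 and was not called (limma adjusted p = 0.238).

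**Figure D3:**
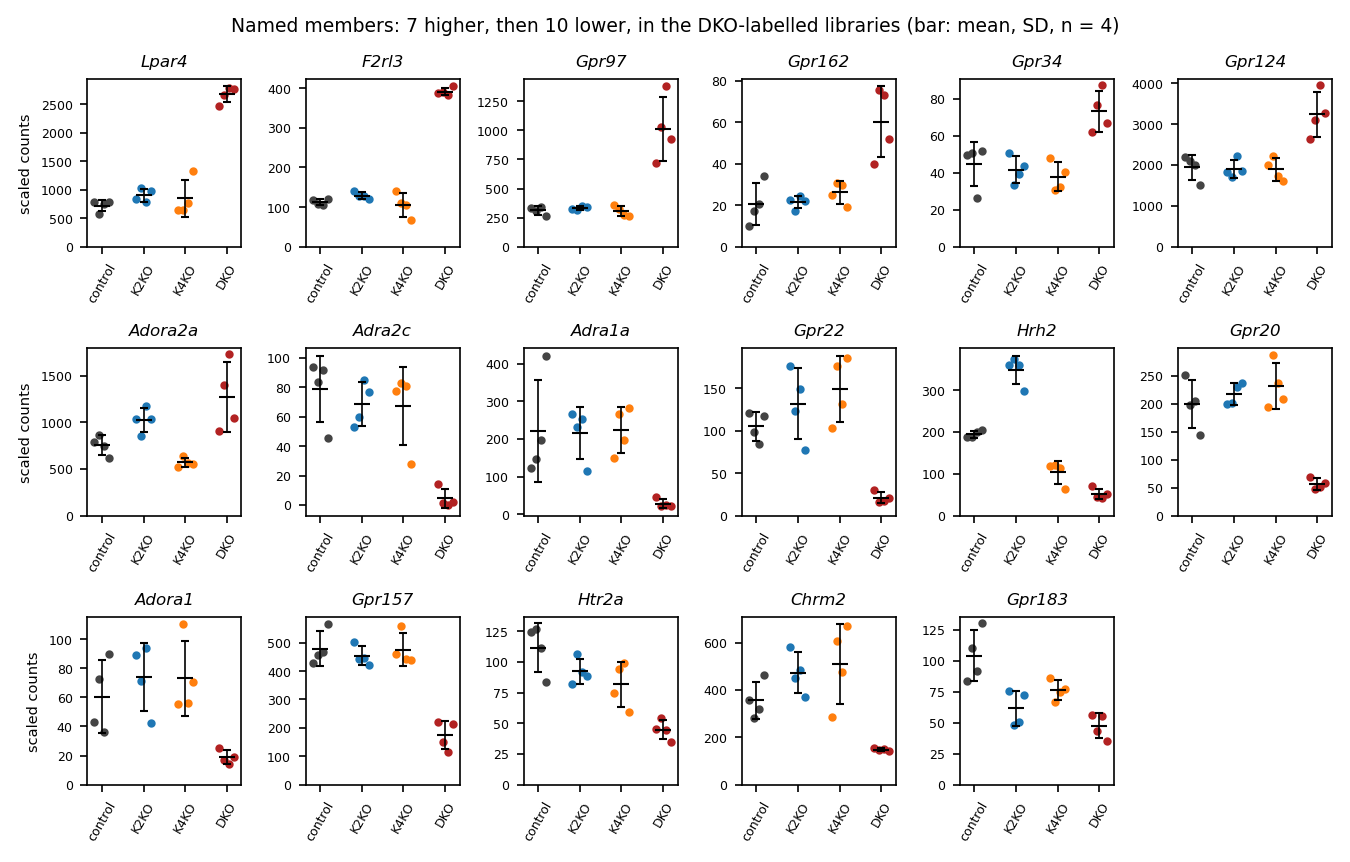
Scaled counts of 17 members that were called in DKO-labelled against control libraries without overlap between the 2 groups, with 1 point per library and the mean ± SD of each group of 4. In the panels from Lpar4 to Adora2a the red DKO-labelled points lie above the black control points, and from Adra2c to Gpr183 they lie below, for Adra2c at 0.305 to 14.4.

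The members that are not receptors gave 1 rise and 5 falls of 14 tested, and the count of rises moved to 4 with the same-median scaling and to 0 with quantile normalization. Gpr155, a lysosomal membrane protein, stood at 578, 543, 592 and 551 scaled counts in controls and 297, 265, 217 and 268 in the DKO-labelled libraries (log2 change -1.12 ± 0.09, limma adjusted p = 1.92e-08), the smallest p of all members in this comparison. Adrbk2 (GRK3) fell from 489 ± 23.1 to 251 ± 24.3 (log2 change -0.96 ± 0.13, limma adjusted p = 5.55e-06). Its relative Adrbk1 (GRK2), which ends signalling by phosphorylating active receptors, stood at 3219 ± 341 and 3341 ± 205 (limma adjusted p = 0.759). Htra3 and Htra4 fell, with limma log2 changes of -1.11 ± 0.28 and -1.27 ± 0.23, while Htra1 rose by 0.32 ± 0.10, a call that was lost with quantile normalization (adjusted p = 0.0675). Gpr107, a membrane protein of the Golgi, stood at 2632 ± 90.7 and 2649.7 ± 55.8 (limma adjusted p = 0.930).

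The signalling parts that receptors share also changed in the DKO-labelled libraries, and the counts were read beside 19.0% and 19.3% of all tested genes. Of the G alpha genes 5 of 13 rose and 3 fell (6 and 1 with the same-median scaling). Limma log2 changes were 0.91 for Gna13 (adjusted p = 7.67e-07), 0.85 for Gna12 (adjusted p = 1.10e-05) and 0.67 for the inhibitory Gnai3 (adjusted p = 2.85e-06). Of the G beta and gamma genes 6 of 14 rose and 3 fell (6 and 2 with the same-median scaling). The rises were led by Gnb4 at 1.01 (limma adjusted p = 5.06e-09) and Gng2 at 1.51 (adjusted p = 2.35e-07), followed by Gng11 (adjusted p = 2.38e-07). The adenylyl cyclases and phospholipases C beta, which make cyclic AMP and release calcium signals, gave 0 rises and 8 falls of 14, led by Plcb1 at -1.11 (limma adjusted p = 2.79e-08), Adcy9 at -0.82 and Adcy5 at -1.37, but 4 rises and 4 falls with the same-median scaling. Of the RGS genes, which switch G proteins off, 3 of 18 rose and 7 fell (5 and 5 with the same-median scaling), among them Rgs6 at -1.34 and Rgs5 and Rgs3 at -0.67 each by limma. Rgs5 is itself a mural marker, and the mural markers were lower in sum in these libraries.

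Among receptor kinases and arrestins 2 of 8 rose and 1 fell (4 and 1 with the same-median scaling). Arrdc3, an arrestin-like protein, rose by 1.15 on the log2 scale (limma adjusted p = 2.96e-08), Arrb1 (beta-arrestin 1) rose by 0.24 with an adjusted p of 0.0447 by limma, and the fall was that of Adrbk2. Genes that make or remove the ligands gave 5 rises and 7 falls of 22 (9 and 4 with the same-median scaling). Entpd1 (CD39), which degrades extracellular ATP and ADP, fell by 1.62 (limma adjusted p = 5.91e-09), Ptgs1, a cyclooxygenase, fell by 0.97, and Ppap2b, which dephosphorylates LPA, fell by 0.90. Adhesion receptors under other symbols gave 2 rises and 2 falls of 13 (2 and 1 with the same-median scaling). The rises were Lphn2 at 0.64 and Celsr2 at 1.35, and Bai2 at -2.15 and Lphn3 at -0.56 fell by limma.

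The 3 comparisons of the DKO-labelled group share its 4 libraries, so their values are given side by side and not as separate evidence. Against K2KO 12 members were higher and 35 lower, beside 17.7% and 18.9% of all tested genes. Against K4KO 12 were higher and 38 lower, beside 19.1% and 20.4%. With the same-median scaling these counts were 24 and 26 against K2KO and 28 and 27 against K4KO, and without the 2 libraries that stood apart they were 10 and 30, and 15 and 32. Of the 50 members called against control, 39 were also called against K2KO and 41 against K4KO, and 35 were called the same way in all 3. These overlap counts stand without a share over all tested genes, so they do not set the members apart from other genes. The log2 changes of Lpar4 were 1.90 ± 0.17 against control, 1.57 ± 0.17 against K2KO and 1.73 ± 0.17 against K4KO, those of F2rl3 1.79 ± 0.16, 1.60 ± 0.16 and 1.93 ± 0.16, and those of Adra2c -4.48 ± 0.54, -4.31 ± 0.54 and -4.19 ± 0.54. Adora2a changed by 0.28 ± 0.16 against K2KO (limma adjusted p = 0.197) and by 1.11 ± 0.16 against K4KO (adjusted p = 1.42e-05).

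The test of the interaction asks whether the DKO-labelled libraries differ from what the 2 single knockouts add up to on the log2 scale. It was positive for 8 members and negative for 28 (limma), beside 12.8% and 13.8% of all tested genes, and the counts were 17 and 24 with the same-median scaling and 11 and 21 without the 2 libraries that stood apart. Among members with a group mean of at least 50 scaled counts the largest were negative: -4.03 ± 0.76 for Adra2c (adjusted p = 0.000622), -3.14 ± 0.43 for Adra1b (adjusted p = 3.42e-05), -3.05 ± 0.36 for Gpr22 (adjusted p = 7.85e-06) and -3.01 ± 0.49 for Adra1a (adjusted p = 0.000156), all by limma. On the positive side F2rl3 gave 1.73 ± 0.23, Gpr97 1.61 ± 0.22 and Lpar4 1.40 ± 0.25. Of the members lower in the DKO-labelled group, Gpr183 gave 0.06 ± 0.28 (limma adjusted p = 0.901), and Gpr161 gave 0.20 ± 0.18 (limma adjusted p = 0.444), which did not pass. Of the 50 called members 28 were called here, all in the direction of their change. Both tests use the same DKO-labelled libraries, so this agreement of direction is not separate evidence. The count of 28 also stands without a share over all tested genes.

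Neither single knockout gave a called member in the limma fit of all libraries. In K2KO against control 0 were higher and 0 lower, beside 0.139% and 0.0294% of all tested genes, with 12 of 129 members at an unadjusted p below 0.05 (beside 6.48% of all tested genes), 2 called by edgeR (Gpr1 and Hrh2) and 5 by DESeq2 (these and Gpr35, Gpr161 and Gpr183), beside 43 and 123 genes called in all. In K4KO against control 0 were higher and 0 lower, beside 0.0294% and 0.0336%, with 15 at an unadjusted p below 0.05 (beside 7.06% of all tested genes), 0 called by edgeR and 1 by DESeq2 (Hrh2), beside 17 and 80 genes in all. Groups did not overlap in K2KO for 5 members above the controls (3.88%) and 4 below (3.10%), beside 2.69% and 1.72% of all tested genes. In K4KO they did not overlap for 2 above (1.55%) and 5 below (3.88%), beside 1.49% and 1.34%. Above in K2KO were Hrh2, Gpr21, Gpr3, Gpr50 and Gpr82, and below were Gpr1, Gpr161, Gpr183 and Gpr35. Above in K4KO were P2ry4 and Gpr83, and below were Hrh2, P2ry2, P2ry6, Gpr35 and Gpr137b. Some of those above rest on few reads: Gpr50 had 3, 1, 1 and 2 in K2KO, and Gpr82 had 5, 4, 7 and 2. P2ry4 had 10, 1, 3 and 2 reads in K4KO and Gpr83 had 6, 1, 2 and 1, both with most in library 1, which stood apart. The K2KO libraries were also deeper, at 32.4 to 51.0 M reads against 23.5 to 24.3 M in controls.

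Hrh2 stood apart in opposite directions in the 2 single knockouts. All 4 K2KO libraries, at 360.4, 374, 359 and 297 scaled counts, lay above the controls at 187, 188, 199 and 204, and all 4 K4KO libraries, at 118, 121, 113 and 63.3, lay below them. The log2 change was 0.83 ± 0.19 in K2KO (limma adjusted p = 0.109) and -0.94 ± 0.19 in K4KO (limma adjusted p = 0.0962), so neither passed in the limma fit of all 16 libraries. In K2KO it passed in the fit of the compared groups alone (adjusted p = 0.00737) and without K4KO 4 (adjusted p = 0.00856), and in K4KO with the same-median scaling (adjusted p = 0.0455) and without DKO 2 (adjusted p = 0.0468), all by limma. In the authors' deposited table Hrh2 was the 1 member called in each of these comparisons, beside 0.103% and 0.0688% of all genes there. By group means it was higher in K2KO and lower in K4KO. The direct comparison of K2KO with K4KO, added after these values were seen, gave 1.77 ± 0.19 (limma adjusted p = 0.000143). In it 2 members were called higher in K2KO and 0 lower, beside 0.349% and 0.0966% of all tested genes, with 9 members at an unadjusted p below 0.05 (beside 7.0% of all tested genes). Adora2a was the second, at 1035, 851, 1169 and 1035 in K2KO and 520.1, 638, 567 and 557 in K4KO, without overlap (log2 change 0.84 ± 0.16, limma adjusted p = 0.0189), and edgeR and DESeq2 each also called Gpr1. The call on Adora2a was lost without K2KO 2, 4 or 5, without K4KO 1 or 3, and without both libraries that stood apart, while Hrh2 was called in all 25 alternatives.

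A further 4 members had values that set a single knockout apart from the controls without passing limma's test. Gpr1 stood at 19.8, 35.1, 32.6 and 29.1 scaled counts in controls, at 13.7, 11.8, 10.1 and 12.0 in K2KO, at 27.7, 21.5, 45.2 and 26.6 in K4KO and at 1.11, 1.23, 1.83 and 2.12 in the DKO-labelled libraries (K2KO against control -1.20 ± 0.29, adjusted p = 0.144 by limma). Its K2KO values lay between those of the controls and of the DKO-labelled libraries. Gpr35, an orphan that responds to kynurenic acid, stood at 96.4, 98.2, 74.9 and 80.9 in controls, at 69.3, 48.4, 48.0 and 36.9 in K2KO, at 58.3, 52.4, 45.2 and 46.8 in K4KO and at 52.1, 48.2, 56.1 and 38.2 in the DKO-labelled libraries. The 3 knockout groups overlapped each other and lay below all controls, with log2 changes of -0.80 ± 0.20, -0.78 ± 0.20 and -0.84 ± 0.20, of which the last passed (limma adjusted p = 0.144, 0.248 and 0.00181).

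Gpr161, a repressor of Hedgehog signalling in cilia, stood at 363, 356, 393 and 322 scaled counts in controls, at 218, 272, 249 and 233 in K2KO, at 392, 286, 279.8 and 251 in K4KO and at 252, 249, 205 and 225 in the DKO-labelled libraries. K2KO and DKO-labelled libraries overlapped each other and lay below the controls (K2KO against control -0.56 ± 0.13, adjusted p = 0.109 by limma). P2ry2, given above, was lower in all 4 K4KO libraries than in the controls (log2 change -0.54 ± 0.20, limma adjusted p = 0.546). No adrenergic receptor, nor Lpar4, F2rl3 or Gpr97, was among the members whose single-knockout libraries were clear of the controls.

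**Figure D4:**
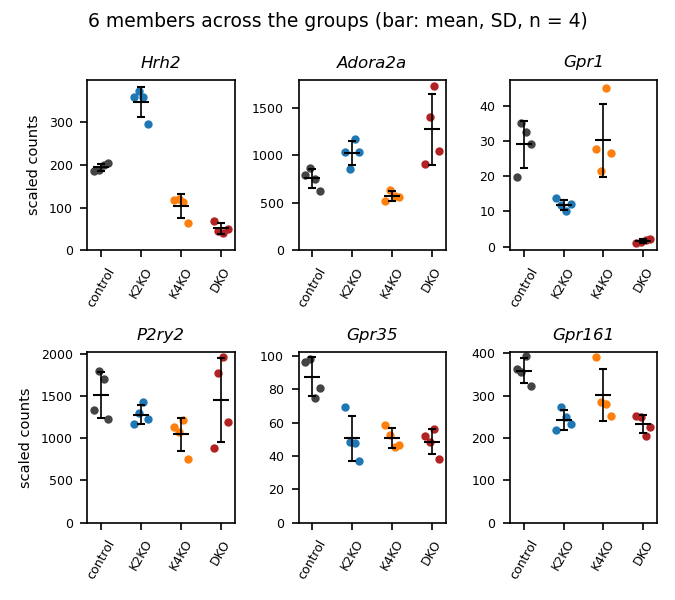
Scaled counts of 6 members in the 4 groups, with 1 point per library and the mean ± SD of 4. For Hrh2 the K2KO points, at 297 to 374, and the K4KO points, at 63.3 to 121, lie on opposite sides of the controls, and for Gpr35 all 3 knockout groups lie below the controls. The members were chosen after their values were seen.

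Members below the filter were near silent in most libraries. The 26 untested members, among them Chrm1, Chrm5, Htr1a, Htr2c, Gpr6 and Gpr151, held 0 to 8 reads in all in 14 of the libraries, but 67 in column 2 of K2KO and 92 in library 1 of K4KO. In those libraries 145 and 147 of the 155 members had at least 1 read, against 110 to 130 in the others, which include the deepest library at 106.0 M reads. The same held over all genes, where 2534 and 2686 of 5322 untested protein-coding genes had a read in these libraries and 98 to 521 in the others. No level in endothelium was read from reads on these members.

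**Figure D5:**
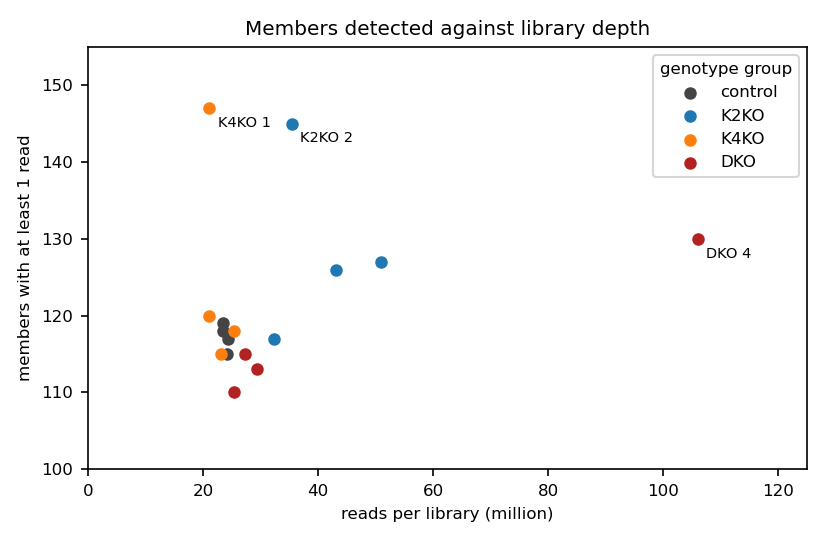
Number of the 155 members with at least 1 read (vertical axis, starting at 100) against library depth in reads, with 1 point per library, coloured by genotype group. K4KO 1 at 147 and K2KO 2 at 145 lie above the others, which range from 110 to 130.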

How the data were processed

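The authors deposited 1 table of gene values per library, and, per the submitters' processing notes, TopHat, Cuffdiff and GRCm38 were used, with neither roles nor versions. The deposited signal is a gene count divided by 1 factor per library: all values were whole reads within 0.001 reads. Neither the counting tool nor its use of the strand was given in the sources used here, and 55 of the 129 tested members meet another gene. From these values log2(value + 1) was tested with limma 3.58.1 in R 4.3.3, in 1 model of 4 group means, over the 23816 genes that reached 1 in 4 or more libraries, with Benjamini-Hochberg adjustment per comparison. Changes are on that scale, which understates those of low genes. Fold changes, log2 values and adjusted p-values of the authors' deposited table are named as such. edgeR 4.0.16 and DESeq2 1.42.0 on the recovered reads, other scalings, pseudocounts and filters, and fits without each library were alternatives. The limma, edgeR and DESeq2 fits were tested on simulated data.

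The members and lists were chosen with earlier results of these data known. Named with every library's value were the up to 10 largest rises and 10 largest falls in DKO-labelled against control without overlap and with a group mean of at least 50 (7 rises met this), the 4 largest called interactions with a group mean of at least 50, and the 10 most abundant others, and up to 3 genes of smallest p from each list; other members were named after their values were seen. Some members stay in the counts and fits but are not reported here by name. Column numbers 2 to 5 of K2KO and DKO name columns only. Deviations of control and K4KO libraries of the same number had r of 0.131, 0.182, 0.224 and 0.492 over 12570 genes. Control 2 deviated more closely with K4KO 1 (r of 0.365) than with K4KO 2, so these values do not settle a pairing. The main model left the number out, and a fit with it as a block called no member in K4KO against control. Samples are pools of mice, and p-values measure the spread between them.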

Additional observations from a re-analysis of the deposited data

Results flagged for a closer look

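A gap wide for its group marked 7 values in 112 groups of 4 libraries (28 named members in 4 groups), and chance alone marks about 1 in 20. Gpr34 stood at 26.6 scaled counts in control 3, against 49.4 to 51.8 in the other controls. Adra2c stood at 27.9 in K4KO 4 (others 77.2 to 83.2) and at 14.4 in DKO 2 (others 0.305 to 2.12). Adra1a stood at 46.6 in DKO 2 (others 21.2 to 25.3), and Adrbk1 at 3037 in DKO 2 (others 3412 to 3483). Hrh2 stood at 63.3 in K4KO 4 (others 113 to 121), and Adra1b at 72.5 in K4KO 2 (others 31.0 to 36.4). DKO 2 also had the highest cardiomyocyte marker sum of its group, at 34826 against 24193 to 28516, and its part in these values was not tested.

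The change from K2KO to the DKO-labelled libraries differed from that of control to K4KO for 15 named members by the limma interaction test. It was positive for Lpar4 (1.40), F2rl3 (1.73), Gpr97 (1.61), Gpr34 (1.01), Gpr124 (0.80) and Adora2a (0.68). It was negative for Adra2c (-4.03), Adra1b (-3.14), Gpr22 (-3.05), Adra1a (-3.01), Adora1 (-2.19), Gpr20 (-2.16), Chrm2 (-2.11), Hrh2 (-1.80) and Gpr157 (-1.40). The direction of each rests on the DKO label.

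Reads on the 26 members that no comparison used reached 1.89 RPM (relative to all reads of the library) in K2KO 2, 4.35 in K4KO 1 and 0.284 in K4KO 2, above the highest control at 0.256. The last of these is 6 reads, as many as in that control.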

How the results depend on the processing

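Over 34 named values, 804 of 847 alternative fits kept the direction and the side of the threshold, and 21 values kept both in every alternative run. With the scaling to a common median (same-median), the higher members were 22 against control, 24 against K2KO and 28 against K4KO, the positive interactions were 17, and 1 member was lower in K4KO. In K2KO against control, edgeR, DESeq2 and the fit on those groups alone each called 1 member higher, and edgeR called 1 and DESeq2 called 4 lower. DESeq2 called 1 lower in K4KO. In K2KO against K4KO, 1 was lower with a mean of at least 5, with edgeR and with DESeq2, and 1 was higher without both libraries that stood apart. Leaving out each library gave 0 to 1 higher and 0 to 1 lower in K2KO, 0 to 1 lower in K4KO, 1 to 2 higher in K2KO against K4KO, and 5 to 10 positive interactions, with 5 without control 2, K2KO 3, DKO 3 or DKO 4. The fit with the replicate number as a block called 0 members higher and 0 lower in K4KO, as without it.

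Named values near 0 turned sign, and the cause was not tested. With the same-median scaling Gpr116 gave 0.03, Lpar6 0.06 and P2ry2 0.15. With quantile normalization Gpr56 gave -0.17, Adrbk1 -0.10, Gpr107 -0.13, Ptger4 -0.08, Gpr125 -0.04 and Gpr4 -0.03. Calls were gained with quantile normalization by Gpr116 (-0.62) and Lpar6 (-0.36, adjusted p = 0.0328), and with the same-median scaling by Gpr107 (0.27, adjusted p = 0.0174), Gpr125 (0.34, adjusted p = 0.00775) and Gpr4 (0.34, adjusted p = 0.0241), all by limma. By edgeR Gpr56 gave -0.03, Gpr107 -0.02 and Ptger4 -0.01, and by DESeq2 Gpr56 gave -0.0021. Leaving out each library gave -0.14 to 0.17 for Gpr56, -0.02 to 0.10 for Adrbk1, -0.01 to 0.03 for Gpr107, -0.04 to 0.23 for Ptger4, -0.28 to 0.10 for P2ry2 and -0.0012 to 0.16 for Gpr4. Low counts limit Adra2c, Gpr1 and Gpr50 most.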

Other observations

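Adhesion receptors that carry a matching symbol only in current nomenclature were among the more abundant of their kind. Eltd1 (Adgrl4), an adhesion receptor of angiogenic endothelium, stood at 33820.3, 32831, 26658 and 26628 scaled counts in controls and at 25961, 27012, 28223 and 25249 in the DKO-labelled libraries, which overlapped (limma log2 change -0.16 ± 0.10 SE, adjusted p = 0.243). Per kilobase it stood at 6539.6 in controls, below Gpr116 and above Gpr56. Cd97 (Adgre5), a leukocyte adhesion receptor, stood at 9138 ± 1537 (SD, n = 4) and 8726 ± 471 and was not called either (limma adjusted p = 0.815). Lphn2 (Adgrl2), a latrophilin, stood at 6411, 6260.3, 7137 and 6857 in controls and at 9669.9, 10901, 10451 and 10462 in the DKO-labelled libraries, without overlap (limma log2 change 0.64 ± 0.08, adjusted p = 2.10e-06). Emr1 (Adgre1, F4/80), a macrophage receptor, stood at 307 ± 102 and 218 ± 63.9 (limma adjusted p = 0.165). The authors' deposited table called 35 members in its comparison of the double knockout with controls (9 up and 26 down), and limma called all 35 the same way.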
